A study of Mus musculus with 6 samples.

Results

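The genes described here code for proteins of the spliceosome and for RNA-binding proteins that act on pre-mRNA. They were taken by name from a table of 12826 genes: all entries beginning with Sf3a, Sf3b, Srsf, Lsm, Prpf or Rbm and a digit, or with Hnrn, Snrp or U2af, apart from 1 joined entry that holds Snrpn, which left 106 genes. These fall into 8 name groups: 11 snRNP core genes (Snrp), 11 SR protein genes (Srsf), 16 hnRNP genes, 8 SF3 genes, 3 U2AF genes, 12 Lsm genes, 13 Prpf genes and 32 Rbm genes. A name is not a function, and some Lsm and Rbm proteins act in mRNA decay or translation and not in splicing. Entries in which Hnrnpa1 and Hnrnpa3 are joined to a neighbouring name do not begin with a matching name and are not members.

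RNA came from ETX-embryos, structures that form in culture when mouse embryonic stem cells (ESC), trophoblast stem cells (TSC) and extraembryonic endoderm stem (XEN) cells are aggregated. All were made with a T/Brachyury-GFP reporter line, in which green fluorescence marks expression of T, a gene of the primitive streak, and all grew in IVC media in aggregation plates without any treatment. From each of 3 individuals, A, B and C, the TSC compartment was removed and the ESC compartment was cut lengthwise. The piece without GFP was taken as prospective anterior and the piece with GFP as prospective posterior, which gave 3 anterior and 3 posterior libraries, 1 Smart-seq2 library per piece. The sources used here give neither age nor strain, the replicates are separate individuals, and nothing in the labels says whether the reporter line is 1 clone.

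Splicing removes introns from pre-mRNA. It is carried out by small nuclear ribonucleoproteins (snRNPs), in which a ring of Sm proteins, or of Lsm proteins in the U6 particle, holds a short RNA. SF3 and U2AF proteins help the U2 particle find the branch point and the 3′ splice site, and Prpf proteins act in the tri-snRNP and in later steps. SR proteins mostly favour the use of exons and hnRNP proteins often oppose it, so that their balance sets which exons are kept. In the early embryo these genes are active in all tissues, while a few Rbm genes are known for expression in particular lineages.

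Levels are on the log2(FPKM + 1) scale, in which FPKM counts fragments per kilobase of a transcript at a common library size, so they can be compared between genes. For a gene, the 3 anterior levels are given first and the 3 posterior ones after the word against, each in the order A, B, C. A difference is the posterior minus the anterior value of an embryo on this scale, where 1 is a doubling for a well expressed gene. The libraries differed in ways that touch every result. Between 9335 and 11082 genes were above 0 in the anterior libraries and between 10260 and 12141 in the posterior ones, and the relative depth read from the lowest values was 1 (set in embryo A), 1.4 and 1.42 for the anterior and 2.19, 2.82 and 1.56 for the posterior pieces. Over all genes, rank correlations to the other libraries were lowest for anterior A (0.57 to 0.66) and anterior C (0.57 to 0.69), followed by posterior C (0.58 to 0.74), and anterior C had the fewest genes above 0. T itself was listed at 0, 0 and 42.5 FPKM against 5.03, 15.6 and 0 FPKM. At this gene the pair from embryo C therefore goes against its labels. Of a list of 10 streak genes that includes T, 4 were above 0 in anterior C, summing to 45.0 FPKM. In posterior C, 9 of the 10 were above 0, summing to 293 FPKM. The pieces of embryo C are called anterior and posterior here as labelled. The median of all 10914 genes in the fit was itself shifted, by 0.91, 0.02 and 0.17 in the single embryos and 0.43 over them, so group values are given beside that shift.

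The table's snRNP core genes were higher in the posterior library by a median of 1.94, 0.85 and 0.61, taking embryos A, B and C in turn. SR protein genes were higher there by medians of 1.5, 0.87 and 0.47. The hnRNP genes had lower medians than both groups in each embryo, with values of 1.03, -0.18 and -0.34, on the anterior side in embryos B and C, and their median over the embryos turned from 0.37 to -0.12 when library medians were made equal. Averaged over the embryos, the median difference was 1.14 for the snRNP core, 1.00 for SR and 0.37 for hnRNP genes, beside 0.71 for all 103 members in the fit and 0.43 for all genes. The snRNP core and SR medians were 0.56 and 0.57 without anterior A, 0.62 and 0.52 without embryo A, and 0.65 and 0.51 with library medians made equal, where all members had 0.22 and all genes -0.06. Of the snRNP core genes 9 of 11 had a positive mean difference, of SR genes 8 of 10 and of hnRNP genes 12 of 16, against 64.9% of all genes.

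**Figure D1:**
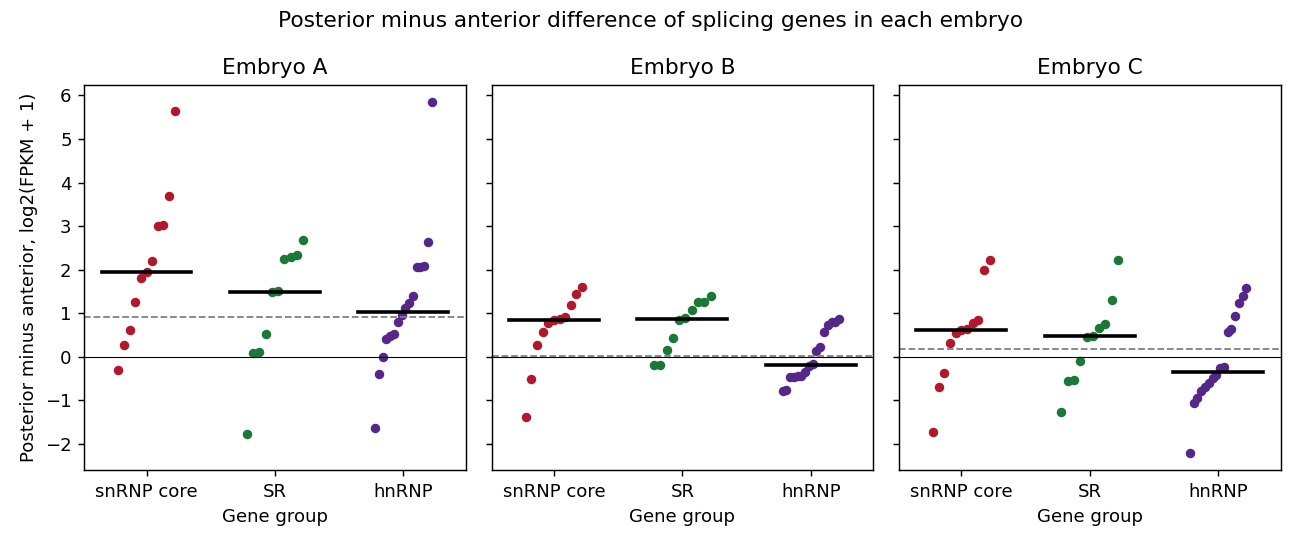
Posterior minus anterior difference of each snRNP core, SR and hnRNP gene (points, sorted within the group) in embryos A, B and C, on the log2(FPKM + 1) scale. Black bars are group medians and the dashed grey line is the median of all genes in that embryo; the snRNP core median lies above the hnRNP median in each panel, at 1.94 against 1.03, 0.85 against -0.18 and 0.61 against -0.34. Equal library medians move the overall hnRNP median from 0.37 to -0.12.

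A comparison of 2 groups within a library does not depend on a shift shared by all genes. A shift that differs with transcript length is not removed by it. All genes had a median difference of 0.82 up to 1000 bases and 0.12 over 4000 bases. The median length was 1161 bases for snRNP core and 2426 for hnRNP genes, and the part of length in the values below was not tested. The median snRNP core difference exceeded the median hnRNP difference by 0.91, 1.04 and 0.94 in embryos A, B and C, a mean of 0.96 ± 0.07 (SD, n = 3). In levels, the median snRNP core gene lay below the median hnRNP gene in the anterior pieces, with gaps of -0.04, -0.02 and -0.51, and above it in the posterior ones, with gaps of 0.79, 0.49 and 0.65. The anterior and posterior values of this gap did not overlap, at -0.19 ± 0.28 and 0.64 ± 0.15 (SD, n = 3 each). For SR against hnRNP genes the gap of differences was 0.47, 1.05 and 0.81, a mean of 0.78 ± 0.29 (SD, n = 3). Between snRNP core and SR genes it was 0.44, -0.02 and 0.13, which changed sign between embryos. No p-value is given for these medians, because the groups were chosen with earlier results of these data known. They also leaned on single libraries: taken over the mean differences the gap between snRNP core and hnRNP genes was 0.77, and it was 0.42 without anterior A and 0.45 without embryo B. Without embryo C, whose labels go against T, it was 0.78.

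No single splicing gene passed the test across all genes. With limma and the embryo as a block, 0 of 103 members and 0 of 10914 genes (0%) had a Benjamini-Hochberg adjusted p under 0.05, and the smallest adjusted p of a member was 0.52. At an unadjusted p under 0.05, 12 members were higher in the posterior libraries, beside 7.24% of all genes, and 0 in the anterior ones, beside 0.788%. Over all genes this was 790 against 86, and with library medians made equal it was 429 against 297, with 4 members higher in the posterior libraries, close to the 3.93% of all genes, and 2 in the anterior ones. On the scale as deposited, the 12 members included 3 of 11 snRNP core (27.3%), 3 of 12 Lsm (25%) and 1 of 10 SR genes (10%). The others were 3 of 31 Rbm (9.68%), 1 of 13 Prpf (7.69%) and 1 of 3 U2AF genes (33.3%). None of the 16 hnRNP (0%) or 7 SF3 genes (0%) was among them. The posterior library was higher in all 3 embryos for 37 members, beside 21.5% of all genes, and the anterior library for 6, beside 8.25%. All posterior libraries lay above all anterior ones for 22 members, beside 12.3%, and the reverse held for 2, Hnrnpab and Rbm5, beside 3.77%. None of the values below therefore marks a gene as changed, and they are given as measured.

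The Sm ring, 7 proteins shared by the U1, U2, U4 and U5 particles, was among the higher levels of the table. Snrpb, which codes for SmB and lies at chr2:130171414-130179403 on the minus strand (GRCm38), was at 6.20, 7.49 and 6.13 against 9.20, 8.36 and 8.36. The groups did not overlap, and the difference was 2.03 ± 0.66 (SE, n = 3 pairs, limma adjusted p = 0.551). Snrpd1, which codes for SmD1, was at 6.51, 6.95 and 7.54 against 8.31, 8.56 and 8.38, with a posterior SD of 0.13 (n = 3) and again no overlap. Snrpf was at 5.87, 6.92 and 6.53 against 8.09, 7.69 and 7.18. Snrpg was at 6.02, 8.07 and 7.76 against 9.06, 8.99 and 8.09, its lowest posterior value just above its highest anterior one. Thus 4 of the 7 ring genes had all posterior libraries above all anterior ones, which held for 12.3% of all genes.

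The other ring members overlapped. Snrpe, the highest of the 11 snRNP core genes at a mean of 343 FPKM, was at 7.19, 8.49 and 7.83 against 8.44, 9.34 and 8.37, higher in the posterior piece of each embryo. Snrpd3 was at 7.11, 7.81 and 8.20 against 9.05, 8.09 and 7.82, and the order was turned in embryo C. Snrpd2 was at 7.37, 8.14 and 7.46 against 7.65, 6.75 and 8.23, the ring gene with no posterior excess on average. The proteins form a ring with 1 copy of each, and the mean differences of their mRNAs ran from 2.03 for Snrpb to -0.11 for Snrpd2.

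The other snRNP core genes code for proteins specific to U1 or U2. The U1 proteins had mean differences of -0.20 and 0.28: Snrpa (U1-A) was at 5.05, 4.69 and 5.17 against 5.68, 4.18 and 4.47, and Snrpc (U1-C) at 4.37, 3.52 and 4.65 against 4.06, 4.07 and 5.26. The U2 proteins both had a positive mean difference. Snrpb2 (U2-B″) was at 1.41, 5.98 and 5.34 against 7.06, 7.15 and 7.33, a difference of 2.94 ± 0.94 (SE, n = 3 pairs, limma adjusted p = 0.551) with no overlap. Anterior A was by far the lowest, and the posterior libraries had an SD of 0.14 (n = 3). Snrpa1 (U2-A′), its partner on the U2 RNA, was at 3.24, 5.34 and 6.71 against 6.94, 6.79 and 4.99, higher in the posterior of embryos A and B and in the anterior of embryo C.

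**Figure D2:**
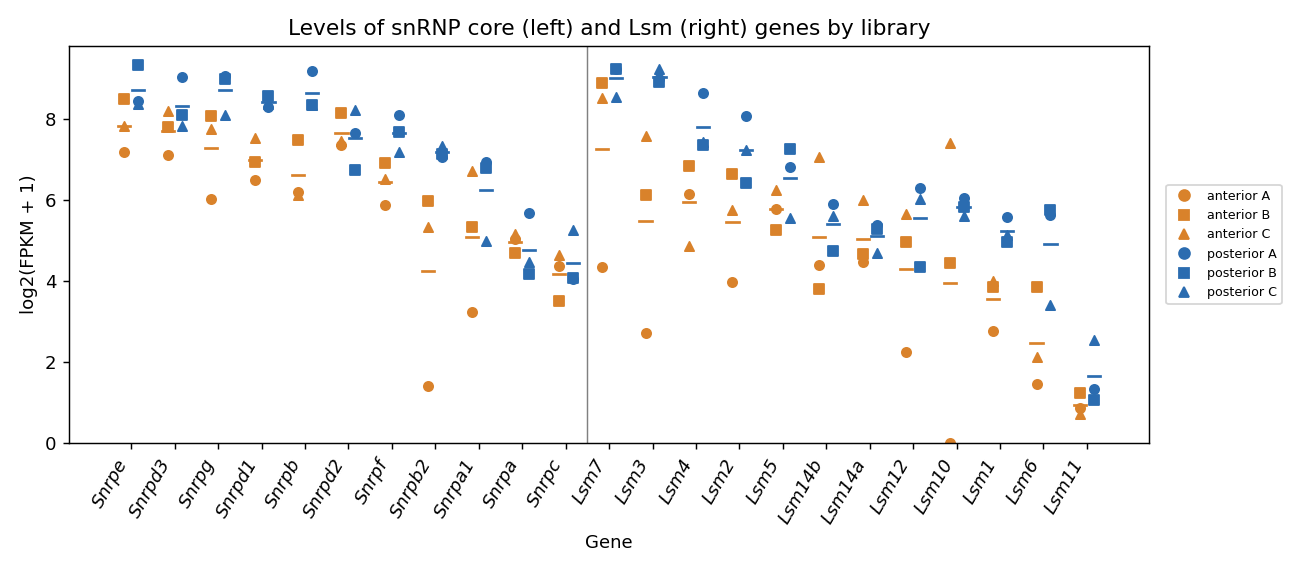
Levels of the snRNP core genes (left of the grey line) and Lsm genes (right) in each library, as log2(FPKM + 1), with circles, squares and triangles for embryos A, B and C and bars for the mean of each domain. Snrpb, Snrpb2, Snrpd1, Snrpf, Snrpg, Lsm1, Lsm3 and Lsm4 have all posterior points above all anterior ones, and anterior A is the lowest anterior point for most of the genes shown.

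The Lsm group had the largest median difference of the 8 name groups, 1.72 over the embryos (3.42, 0.78 and 0.76 in A, B and C), and all 12 members had a positive mean. Lsm2 to Lsm7, the members in the table of the ring that binds the end of U6 RNA, had medians of 4.13, 1.21 and 1.38 by embryo. Lsm3 was at 2.72, 6.13 and 7.58 against 9.0, 8.91 and 9.23, 5.60 to 190 FPKM against 480 to 601 FPKM. Its difference of 3.57 ± 0.88 (SE, n = 3 pairs) had an unadjusted limma p of 0.00259 and an adjusted p of 0.52. Lsm4 was at 6.15, 6.84 and 4.88 against 8.64, 7.36 and 7.43, also without overlap. Lsm6 was at 1.46, 3.85 and 2.13 against 5.63, 5.76 and 3.41, and here posterior C lay below anterior B. Lsm7, the highest Lsm gene at a mean of 407 FPKM, was at 4.36, 8.89 and 8.53 against 9.24, 9.24 and 8.55, so that the pieces of embryo C were level. Lsm1, which replaces the nuclear subunit in the cytoplasmic ring for mRNA decay, was higher in every posterior library, by 1.69 on average. The 2 Lsm genes of the U7 particle, Lsm10 and Lsm11, and Lsm12, Lsm14a and Lsm14b overlapped between the domains.

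Most SR genes were on the posterior side, by different amounts. Srsf2 (SC35) was at 7.41, 7.82 and 7.29 against 8.89, 8.26 and 8.59, a difference of 1.07 ± 0.60 (SE, n = 3 pairs, limma adjusted p = 0.647) with no overlap. Srsf7 was at 4.71, 6.51 and 6.70 against 7.01, 7.90 and 7.16, and Srsf5 was also without overlap. Srsf6 was at 2.53, 5.03 and 3.83 against 4.87, 6.11 and 6.06, the largest SR difference at 1.88 ± 0.78 (SE), although posterior A lay below anterior B. Srsf3, the smallest SR protein, was at 6.29, 7.34 and 8.28 against 8.53, 8.60 and 8.19, level between the pieces of embryo C. Srsf9 was at 5.48, 7.01 and 6.87 against 8.17, 6.82 and 7.35. Srsf10, which acts as a repressor when dephosphorylated, was at 7.47, 8.05 and 7.56 against 7.59, 7.86 and 7.0 and did not share the posterior side. Srsf11 and Srsf1 overlapped as well. Srsf12 was below the filter, at 0, 0 and 0 against 1.87, 1.9 and 0.

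**Figure D3:**
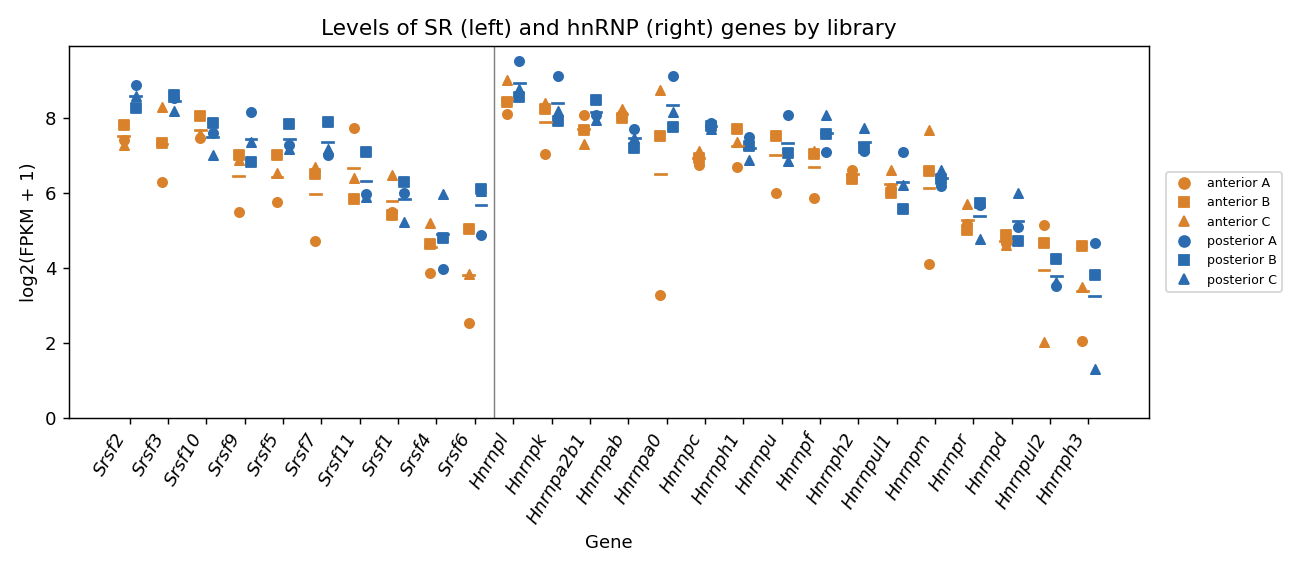
Levels of the 10 SR genes in the fit (left of the grey line) and of the 16 hnRNP genes (right) in each library, as log2(FPKM + 1), with symbols for embryos A, B and C and bars for domain means. Srsf2, Srsf5, Srsf7, Hnrnpc and Hnrnph2 have all posterior points above the anterior ones, while Hnrnpab has them all below.

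The hnRNP genes were the most even of the 3 groups. Their SD over the 6 libraries had a median of 0.52, against 0.78 for SR, 0.80 for snRNP core, 1.34 for Lsm and 1.17 for all genes. Hnrnpl, a regulator of exon choice and the highest hnRNP gene at a mean of 444 FPKM, was at 8.11, 8.42 and 9.01 against 9.51, 8.56 and 8.76, a difference of 0.43 ± 0.60 (SE, n = 3 pairs). Hnrnpk was at 7.04, 8.25 and 8.40 against 9.13, 7.91 and 8.18, higher in the anterior piece of embryos B and C. Hnrnpa2b1 was at 8.09, 7.69 and 7.30 against 8.09, 8.48 and 7.94. Hnrnpa0 spread most, at 3.27, 7.53 and 8.74 against 9.11, 7.75 and 8.16, and its mean difference of 1.83 turned sign without embryo A.

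Members on each side of the hnRNP group can be named. Hnrnpab was at 8.10, 7.99 and 8.25 against 7.70, 7.21 and 7.47, 252 to 304 FPKM against 147 to 207 FPKM. Its groups did not overlap, and the difference was -0.65 ± 0.59 (SE, n = 3 pairs, limma adjusted p = 0.759). Hnrnpc, which binds uridine tracts, was at 6.74, 6.92 and 7.13 against 7.86, 7.78 and 7.71. Hnrnph2 was at 6.62, 6.38 and 6.49 against 7.11, 7.19 and 7.74, also without overlap, whereas its close relative Hnrnph1 was at 6.68, 7.71 and 7.37 against 7.48, 7.25 and 6.88. Hnrnpf was at 5.87, 7.03 and 7.13 against 7.10, 7.58 and 8.07, higher in each posterior piece. No hnRNP and no snRNP core gene was listed at 0 in any library, while 5.34% to 27.2% of the table was.

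Promoters of 3 snRNP genes that separated the domains and of 3 highly expressed hnRNP genes are shown so that the 2 groups can be compared at the sequence level; they were picked with the values known. Each is the 250 bases before the first-listed RefSeq start of the gene (GRCm38.p6), 5′ to 3′ on the gene's strand. This need not be its outermost start. By the GENCODE positions of the genes, the windows of Hnrnpk and Hnrnpl lie inside the gene, and that of Snrpg mostly does. Capitals mark CCAAT or CCGGAAG (the latter a core bound by ETS factors) and their reverse complements. The regions are chr2:143062819-143063068 (plus strand) for Snrpb2, chr10:93589659-93589908 (minus) for Snrpf, chr6:86371290-86371539 (plus) for Snrpg, chr11:51606882-51607131 (minus) for Hnrnpab, chr13:58402118-58402367 (minus) for Hnrnpk and chr7:28810640-28810889 (plus) for Hnrnpl.
Snrpb2: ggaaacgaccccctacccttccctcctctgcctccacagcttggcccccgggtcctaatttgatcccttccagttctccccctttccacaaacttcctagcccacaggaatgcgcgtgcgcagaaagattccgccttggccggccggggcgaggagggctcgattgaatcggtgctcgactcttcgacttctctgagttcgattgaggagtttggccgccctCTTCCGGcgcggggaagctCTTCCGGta
Snrpf: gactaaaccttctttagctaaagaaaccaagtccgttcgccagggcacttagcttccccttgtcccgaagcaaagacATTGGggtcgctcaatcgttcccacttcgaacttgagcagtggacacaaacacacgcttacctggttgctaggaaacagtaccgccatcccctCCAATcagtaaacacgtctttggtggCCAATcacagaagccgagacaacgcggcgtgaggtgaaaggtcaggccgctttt
Snrpg: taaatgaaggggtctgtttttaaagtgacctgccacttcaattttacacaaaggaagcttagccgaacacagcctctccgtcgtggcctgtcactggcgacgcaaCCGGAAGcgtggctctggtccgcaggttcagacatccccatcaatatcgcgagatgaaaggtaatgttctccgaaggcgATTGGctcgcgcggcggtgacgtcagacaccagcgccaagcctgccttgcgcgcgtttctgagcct
Hnrnpab: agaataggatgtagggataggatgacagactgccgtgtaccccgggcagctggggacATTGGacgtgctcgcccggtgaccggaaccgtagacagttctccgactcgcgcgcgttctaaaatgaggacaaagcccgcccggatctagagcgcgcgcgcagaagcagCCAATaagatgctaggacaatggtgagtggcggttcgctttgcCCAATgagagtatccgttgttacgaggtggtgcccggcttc
Hnrnpk: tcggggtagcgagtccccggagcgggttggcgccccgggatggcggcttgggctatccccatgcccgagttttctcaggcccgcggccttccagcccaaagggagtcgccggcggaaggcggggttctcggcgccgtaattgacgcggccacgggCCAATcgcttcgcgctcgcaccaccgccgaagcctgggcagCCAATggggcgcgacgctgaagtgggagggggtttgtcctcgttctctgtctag
Hnrnpl: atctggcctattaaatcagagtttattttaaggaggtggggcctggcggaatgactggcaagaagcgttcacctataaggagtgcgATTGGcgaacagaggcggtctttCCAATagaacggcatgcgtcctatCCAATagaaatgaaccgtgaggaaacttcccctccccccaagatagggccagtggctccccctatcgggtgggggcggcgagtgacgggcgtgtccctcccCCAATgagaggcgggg

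In these windows Snrpb2 held CCGGAAG at 2 places and no CCAAT, Snrpf held CCAAT at 3 places, and Snrpg held 1 of each. The hnRNP windows held CCAAT at 3 places in Hnrnpab, 2 in Hnrnpk and 4 in Hnrnpl, and no CCGGAAG. A RefSeq promoter was matched for 88 of the 106 members. On either strand, CCAAT was found in 10 of 15 hnRNP, 3 of 9 snRNP core and 3 of 11 SR promoters, against 34.5% of all promoters and 36.9% of those of genes in the table. CCGGAAG was found in 2 of 15, 3 of 9 and 4 of 11, and in 5 of 6 SF3 promoters, against 7.05% and 13.7%. GGGCGG was found in 10 of 15, 5 of 9 and 10 of 11, against 32.9% and 59.9%. TATAAA (10.2% of members, 13% of all promoters and 6.24% of those of genes in the table) was searched too, on both strands. So were CACGTG (6.82%, 6.05% and 8.5%) and AAGATGGCG (0%, 0.607% and 1.16%). Matches of different motifs can share bases, as CCGGAAG and AAGATGGCG can through AAG, and a match is a description of the sequence only.

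Of the SF3 genes, whose products form the part of the U2 snRNP that grips the branch point, Sf3b5 was at 7.29, 6.23 and 5.06 against 7.90, 6.82 and 8.30. Sf3b3 was at 4.62, 4.14 and 4.39 against 5.45, 5.18 and 4.84, the only SF3 gene without overlap. Sf3b1, which codes for the largest subunit, was at 4.71, 5.83 and 5.60 against 4.97, 4.08 and 4.63. Subunits of 1 complex thus lay on both sides, and Sf3a1 was nearly level, with an SD of 0.24 over the 6 libraries. Sf3a2 was below the filter, listed at 0 in 3 libraries and at most 1.53.

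U2af1, the small U2AF subunit that reads the AG at the 3′ splice site, was at 5.52, 6.49 and 6.63 against 6.82, 6.59 and 7.11. Its paralogue U2af1l4 was at 0, 2.78 and 0 against 4.56, 4.90 and 4.68, the latter 22.6 to 28.8 FPKM. This was the largest difference of any member, 3.79 ± 1.02 (SE, n = 3 pairs, limma adjusted p = 0.52), and no fold is given because of the values at 0. U2af2, the large subunit, was at 4.63, 4.02 and 0.68 against 3.37, 3.13 and 4.82, on the anterior side in embryos A and B.

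The Prpf group was the most balanced, with a median difference of 0.15 and 7 of 13 means positive. Prpf3, a U4/U6 protein, was at 1.59, 3.33 and 0 against 3.64, 4.2 and 4.92, without overlap. Prpf31, its neighbour in the tri-snRNP, was higher by 1.37, 1.27 and 1.08 in the posterior of embryos A, B and C, an even difference, though the levels of the embryos overlapped. Prpf40b, a U1-associated protein, was at 5.77, 6.78 and 7.22 against 5.32, 3.09 and 6.25, a difference of -1.71 ± 0.83 (SE, n = 3 pairs, limma adjusted p = 0.625). Prpf8, at the catalytic centre, was at 2.47, 3.90 and 1.53 against 4.13, 2.62 and 3.63, and Prpf19 at 2.69, 0.56 and 1.94 against 0.87, 1.52 and 1.16, both with overlap. Prpf38a had the smallest SD over the 6 libraries of any member, 0.23.

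Rbm genes covered the widest range of levels. Rbm39, a U2AF-related protein, was the highest member of all, at 9.40, 9.53 and 10.23 against 9.68, 8.31 and 9.03, a mean of 712 FPKM. Rbm5, which shares its domain layout with Rbm6 and Rbm10, was at 7.54, 6.71 and 7.50 against 6.22, 6.38 and 6.65, and was 1 of the 2 members with all anterior libraries above the posterior ones. Rbm10 lay on the other side, at 2.49, 3.00 and 0.84 against 3.49, 3.23 and 3.32, and Rbm6 overlapped. Rbm14 was at 2.33, 0.87 and 0.63 against 3.89, 2.76 and 3.95, a difference of 2.25 ± 0.99 (SE, n = 3 pairs, limma adjusted p = 0.617). Rbm18 was at 0.81, 4.27 and 0.14 against 1.64, 4.85 and 5.40, higher in each posterior piece but overlapping. Rbm22, a protein near the catalytic RNA, was at 0.93, 4.16 and 4.79 against 3.93, 5.04 and 5.35. Rbm15, an RNA methylation adaptor, was at 6.60, 6.76 and 7.90 against 7.09, 5.31 and 7.99 and lay highest in both pieces of embryo C.

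Some Rbm genes are known for restricted expression. Rbm47, a gene of endoderm and other epithelia, was at 6.62, 7.81 and 7.03 against 7.88, 8.12 and 7.59, so it was well above 0 in every piece. Rbm24, known from heart and skeletal muscle, was at 0, 0 and 1.49 against 2.11, 1.5 and 3.70. Rbm20, a splicing factor of heart muscle, was at 3.68, 1.79 and 3.06 against 1.45, 1.75 and 1.94, higher in each anterior piece, a difference of -1.13 ± 1.00 (SE, n = 3 pairs). Rbm38, a target of p53, was at 0.28, 1.91 and 1.49 against 4.53, 2.29 and 0.76. None of these had a limma adjusted p under 0.617.

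Several members have close copies, so their reads could be split or shared. Rbm12b2 was at 0.14, 3.78 and 5.08 against 5.33, 5.04 and 6.04, while Rbm12b1, from the same cluster, was at 2.21, 1.48 and 0 against 1.07, 2.09 and 1.88. Rbm4 was at 3.12, 2.21 and 2.07 against 4.52, 4.67 and 4.18, without overlap, and Rbm4b at 1.72, 3.54 and 3.29 against 4.76, 4.11 and 3.08. The same uncertainty holds for Hnrnph1 and Hnrnph2 and for Sm and hnRNP genes with processed pseudogenes, as the sources used here do not say how shared reads were handled.

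Among the embryos 0 members and 0 of 10914 genes (0%) passed limma's F test after adjustment, and at an unadjusted p under 0.05 it was 0 of 103 members beside 2.77% of all genes. Over the members alone, libraries had rank correlations of 0.69 to 0.93, the lowest again with anterior A. Values at 0 were few, with 8 of 106 members at 0 in some library, and 6, 3 and 6 members against 0, 0 and 3 by library.

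The differences went with transcript length. Over the 103 members the Spearman correlation of the mean difference with the median length of a gene's protein-coding transcripts was -0.40, and over 9406 genes of the fit it was -0.21, both across genes, which share the same libraries and are not independent. The median length was 1161 bases for snRNP core, 1189 for Lsm, 2139 for SR and 2426 for hnRNP genes, and 2651 for all genes. In the classes up to 1000 bases, 1000 to 2000, 2000 to 4000 and over 4000 bases, all genes had median differences of 0.82, 0.69, 0.40 and 0.12, and the members 1.58, 1.05, 0.51 and 0.30. Members lay above all genes in each class. Up to 1000 bases the snRNP core and Lsm genes had a median of 1.58 (n = 10) and the other members 2.21 (n = 2). At 1000 to 2000 bases these were 1.14 (n = 7) and 1.02 (n = 17). At 2000 to 4000 bases they were 1.26 (n = 5) and 0.48 (n = 42), and over 4000 bases 0.72 (n = 1) and 0.30 (n = 19). By embryo, all genes had medians of 1.57, 1.48, 0.86 and 0.42 in embryo A, 0.06, 0.11, 0.04 and -0.05 in B, and 0.33, 0.28, 0.18 and 0.05 in C. The groups' levels were also compared. Among genes with a mean level of 6 to 8, the median difference was 0.37 for all 874 genes, 1.42 for 5 snRNP core, 1.00 for 6 SR and 0.39 for 10 hnRNP genes. At a mean level of 4 to 6 it was 0.41 for all genes, 0.71 for 4 snRNP core, 0.33 for 3 SR and 0.33 for 2 hnRNP genes, and above 8 it was 0.34, 0.75 for 2, 1.07 for 1 and 0.47 for 2, so the order of the groups was not the same at each level.

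**Figure D4:**
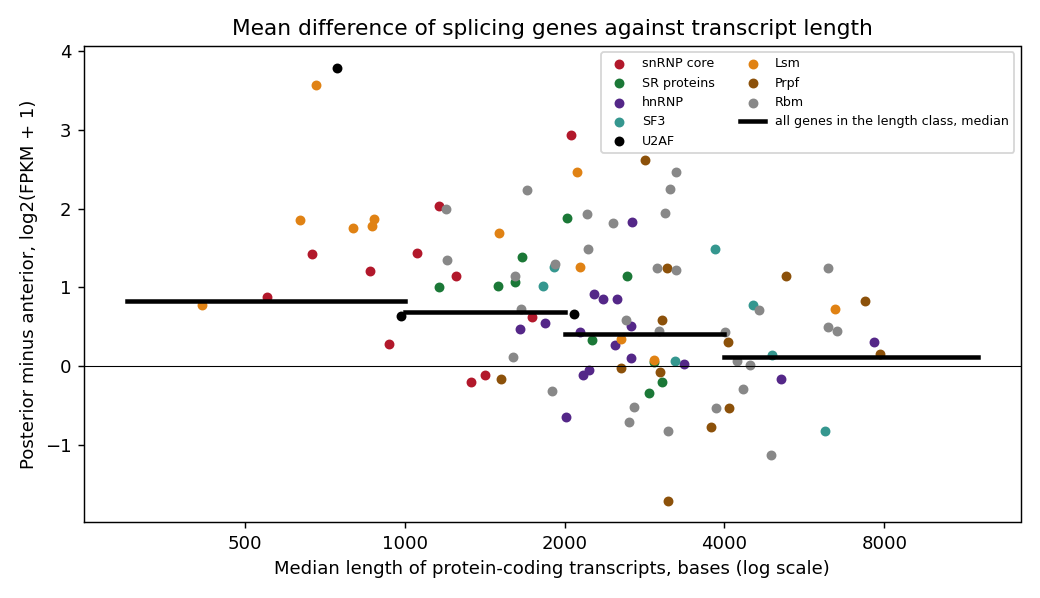
Mean posterior minus anterior difference of each of the 103 members, on the log2(FPKM + 1) scale, against the median length of its protein-coding transcripts (log axis), coloured by name group. Black bars are the medians of all genes in each length class, 0.82, 0.69, 0.40 and 0.12; the 12 members of up to 1000 bases, mostly snRNP core and Lsm genes, have a median of 1.58.

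Markers of the cell types that a piece could hold were also compared. Summed levels of the epiblast and ESC list and of the primitive streak list did not overlap between the domains. Those of the other lists overlapped. The epiblast and ESC list had 6 or 7 of 10 genes above 0 in the anterior libraries, with Tdgf1 and Dppa4 at 0 in all of them, and 10 of 10 in the posterior ones, with summed levels of 38.8 to 196 FPKM against 313 to 1830 FPKM. The primitive streak list had 1 to 4 of 10 genes above 0, summing to 0.127 to 45.0 FPKM, against 9 or 10 and 283 to 347 FPKM. Sums for visceral endoderm ran from 118 to 1100 FPKM against 711 to 3500 FPKM (2 to 8 against 6 to 9 of 9 genes). Ttr, Cubn and Hnf4a were at 0 in anterior C only, and Rbp4 in both pieces of embryo C. Apom was at 0 in all anterior libraries, Amn in anterior A and C and posterior C, and Apoa1 in anterior C and posterior A and C. For parietal endoderm and XEN cells the sums were 297 to 1740 FPKM against 357 to 789 FPKM (9 to 12 against 12 of 12 genes). Gata4, Sox17 and Sox7 were at 0 in anterior C. For trophoblast the sums were 300 to 448 FPKM against 273 to 655 FPKM (6 against 7 to 9 of 9 genes). Elf5 was at 0 in all anterior libraries and posterior C. The anterior epiblast and neural plate list summed to 89.1 to 212 FPKM against 18.2 to 166 FPKM (4 or 5 against 3 to 6 of 7 genes). Sox3 was at 0 in all libraries but posterior A, and Hesx1 in anterior C and in posterior A and C. Six3 was at 0 in anterior A and B and in posterior C, Crabp2 in anterior A and B, and Crabp1 in posterior C. The part of these cell types, of depth and of transcript length in the splicing gene values was not tested. In such bulk pieces fewer cells of a type and less RNA per cell cannot be told apart.

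Other genes of the splicing machinery, named differently and so outside the set, were followed in 5 lists. Of 155 genes listed, 147 were in the table and 146 in the fit, with a median difference of 0.39, close to the 0.43 of all genes, and 105 of 146 means positive (71.9%, against 64.9% of all genes). At an unadjusted limma p under 0.05, 9 were higher in the posterior libraries (6.16%, against 7.24% of all genes) and 1 in the anterior ones (0.685%, against 0.788%), and none had an adjusted p under 0.05. All posterior libraries lay above all anterior ones for 19 of the 146 genes (13%), close to the 12.3% of all genes. The reverse held for 2 (1.37%, against 3.77%). Phf5a, a small SF3b subunit, was at 0.30, 4.21 and 5.41 against 6.60, 6.25 and 7.15, without overlap. Txnl4a, a U5 protein, was at 3.48, 4.98 and 4.88 against 6.66, 6.89 and 6.45, a difference of 2.22 ± 0.73 (SE, n = 3 pairs, limma adjusted p = 0.551). Snrnp40, also of U5, was at 2.30, 5.54 and 2.49 against 6.08, 6.22 and 6.11, and Luc7l3, a U1-associated protein, at 8.06, 7.78 and 8.04 against 7.64, 7.27 and 7.76. Eif4a3 and Magoh, core proteins of the exon junction complex that splicing leaves on mRNA, were at 3.05, 4.96 and 3.73 against 5.80, 5.89 and 5.58 and at 7.10, 7.28 and 5.47 against 7.83, 8.29 and 8.02, both without overlap. Elavl1 (HuR), which binds AU-rich RNA, was at 2.78, 3.94 and 5.34 against 6.0, 6.23 and 5.67, also without overlap. On the anterior side, Sugp1, a G-patch splicing protein, was at 4.03, 4.4 and 4.43 against 4.18, 3.05 and 1.47, and Taf15, an RNA-binding protein, at 7.0, 5.55 and 4.55 against 5.09, 5.15 and 4.36, neither free of overlap. In the list of the Prp19 complex and later factors, Syf2 was at 3.26, 4.02 and 0 against 4.67, 5.53 and 5.73, while Gpatch1 was at 3.36, 3.64 and 3.89 against 3.37, 2.71 and 2.33 and Bcas2 at 8.51, 7.83 and 7.64 against 7.88, 7.44 and 7.60.

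The list of SR kinases and snRNP assembly genes bears on how the groups above are assembled and regulated. Gemin4, a subunit of the SMN complex that loads Sm rings onto snRNA, was at 0.27, 0 and 0 against 3.11, 2.93 and 3.14 (difference 2.97 ± 0.91 SE, n = 3 pairs, limma adjusted p = 0.551). Clk3, a kinase of SR proteins, was the 1 gene of the 5 lists at an unadjusted p under 0.05 on the anterior side (0.788% of all genes), at 5.55, 5.11 and 5.25 against 3.28, 2.77 and 0.73, a difference of -3.04 ± 0.92 (SE, limma adjusted p = 0.54). The domains did not overlap for either gene. Clk1, a related kinase, was at 5.18, 6.78 and 7.15 against 5.76, 6.41 and 4.47, lower in the posterior pieces of embryos B and C. As a whole the list of SR kinases and snRNP assembly genes had a median difference of 0.28, with 18 of 25 positive. The list of U1, U2 and tri-snRNP proteins outside the set had 0.38 (32 of 39), the Prp19 complex, catalytic helicases and step factors 0.70 (22 of 29), the exon junction complex and SR-related proteins 0.48 (15 of 21) and other regulators of alternative splicing 0.32 (18 of 32), so their medians lay between 0.28 and 0.70.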

How the data were processed

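RNA was measured in 6 Smart-seq2 libraries (18 cycles of preamplification, per the labels' protocols). Per the labels' protocols, mapping used Ensembl version 38.77 and HTSeq-count did the counting. Build mm10, Cufflinks 2.0.2 and TopHat2 2.0.4 stand in the submitters' processing notes. The sources used here do not give which tool made the values or how they were normalized further. What the authors deposited is a single table of log2(FPKM + 1) values. The scale was read from the values, since raising 2 to a value above 3 and subtracting 1 left no more than 6 significant digits for 98.8% to 99.2% of values, and for 0.293% or fewer with base e. The planned test assumed FPKM and needed this scale, so no transformation was applied.

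The fit took genes whose mean reached 1 FPKM (10914, with 103 of 106 members). Posterior minus anterior differences were fitted with limma 3.58.1 (R 4.3.3) with a mean-variance trend and the embryo as a block, 2 residual and 7.5 prior degrees of freedom, two-sided, and p-values were adjusted over all genes by Benjamini-Hochberg at 0.05. Both pieces of an embryo come from the same individual, which is the source of the pairing; after subtracting domain means, the pieces of an embryo had correlations of -0.07, 0.04 and -0.03. A difference on this scale understates changes of low genes. The absolute depth is unknown. Relative depth came from the steps of low values, where 7 of 10 other pairs of libraries fitted within 0.05 in log2 and 3 were off by a doubling. Transcript lengths and positions are from GENCODE vM21 (GRCm38) and promoters from RefSeq (GRCm38.p6), with the first-listed start of each gene.

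Named genes are all snRNP core genes, the 4 highest SR and hnRNP genes, up to 3 per name group and direction moving the same way in all embryos, the 6 with the smallest p between domains and among embryos, Rbm20, Rbm24, Rbm38, Rbm47 and Srsf12 for their restricted expression (Rbm46 is not analysed here) and up to 3 per direction from each pathway list. Others (such as Hnrnph1, Rbm39, Srsf5, Prpf8, Sf3b1 and U2af2) were chosen after their values were seen, and 1 gene that the rule names is not reported here. Members and lists were chosen with earlier results of these data known. Scripts were tested on simulated data. Alternatives were the pseudocount, the filter, a median shift, quantile normalization, no block, no trend and leaving out embryos or single libraries. Python 3.11.15 and pandas 2.3.3 were used for counts and medians.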

Additional observations from a re-analysis of the deposited data

How the results depend on the processing

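No member had an adjusted p under 0.05 under any alternative. With no replicate block in place of pairing by embryo, 0 genes were called, with 18 members at an unadjusted p under 0.05 beside 8.36% of all genes, and 1 gene was called, not a member, both without anterior C and without posterior C. The median differences of snRNP core and SR genes, 1.14 and 1.00, stayed positive but were 0.56 and 0.57 without anterior A and 0.65 and 0.51 after shifting library medians to be equal. The hnRNP median turned to -0.12 after that shift and ran from -0.15 to 0.71 when an embryo was left out. The excess of the snRNP core over the hnRNP median was 0.45 to 0.78 with an embryo left out and 0.42 without anterior A, which was chosen after seeing the data.

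Counts moved more. Members at an unadjusted p under 0.05 numbered 4 after the median shift, beside 3.93% of all genes, 6 after quantile normalization, beside 4.7%, and 4 to 10 with an embryo left out, beside 3.19% to 8.23%. Members without overlap between domains numbered 14 after the median shift (7.14% of all genes), 35 without anterior C (19.6%) and 31 to 46 with an embryo left out (19.9% to 31.1%), and those on the posterior side in all remaining embryos 41 to 56 (28.2% to 38.5%). Fewer libraries make both easier to meet. Over all genes, the split at an unadjusted p under 0.05 was 790 posterior to 86 anterior and became 429 to 297 after the median shift and 513 to 315 after quantile normalization. Genes called among embryos numbered 3 with no filter, 3 after the median shift, 3 after quantile normalization and 0 to 4 with an embryo left out, against 0. Of 77 named genes, 17 changed sign under some alternative, among them Hnrnpl, Hnrnpa2b1 and Snrpc after the median shift, Snrpd3, Snrpa1, Hnrnpl, Hnrnpk, Hnrnpa0 and Rbm38 without embryo A, Snrpd2 and Rbm15 without embryo B, and Snrpa without embryo C. The causes were not tested. The unknown absolute depth, 3 pairs and the lower relative depth read for the anterior libraries limit what small differences can show. That reading is itself uncertain, as 3 of 10 other pairs of libraries were off by a doubling.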
